A study of Mus musculus with 6 samples.

Results

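Edn1, Ednra, Ednrb, Ece1, Adm, Calcrl, Ramp1, Ramp2, Ramp3 and Npr3 encode vasoactive peptides of the vessel wall, their receptors, and an enzyme that activates endothelin. They were taken by symbol as a listed set of 10 genes, among 55402 features of which 18687 had a count in any library. Aortic roots of 24-week-old male mice were dissociated and sequenced as single cells in 6 libraries. Each of 3 genotypes was sorted into a lineage-positive fraction, tdTomato-positive cells derived from smooth muscle cells (SMC), and a lineage-negative fraction. The genotypes were littermate controls with the wild type Klf4 allele, Marfan mice heterozygous for Fbn1 C1041G with the wild type Klf4 allele, and Marfan mice with the same Fbn1 allele and floxed Klf4, in which Klf4 deletion was induced per the series design and confined to SMC per its title. A single library stood for each genotype and fraction, made from 4 pooled animals that cannot be told apart. The tdTomato reporter was used for the sort in all 3 genotypes, and the labels do not name the Cre line.

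No test between genotypes was possible, so none is given. Levels are counts of unique molecular identifiers (UMIs, the molecules counted) summed over the cells of a class, scaled to the UMI total of that class (CPM, counts per 1e+06 UMIs), with exact Poisson 95% intervals in brackets. Differences are log2 ratios of CPM with exact 95% intervals. Both kinds of interval cover counting error only, and every difference is between libraries, with no replicate check. A gene counted as measured if 1 of the libraries compared reached 5 CPM, and as higher or lower from a 1.5-fold ratio upward. CPM is not corrected for gene length, so levels are compared within a gene only.

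Endothelin-1 is made as a precursor, cut to its active form by endothelin-converting enzyme, and acts on the A receptor of muscle, where it constricts, and on the B receptor, which on endothelium drives release of dilators and also clears the peptide. Adrenomedullin is a dilator that acts through Calcrl joined to Ramp2 or Ramp3, while Calcrl with Ramp1 makes the receptor of calcitonin gene-related peptide. Npr3 removes natriuretic peptides from the circulation. In arteries endothelin-1 is known chiefly as an endothelial product that acts on the muscle beneath, and adrenomedullin signalling is known for its part in forming lymphatic vessels.

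Kept cells numbered 39728, between 4347 and 10929 per library. Lineage-positive libraries had median depths of 11379.5 (control), 2153 (Marfan) and 12878 UMIs per cell (labelled Klf4-floxed), and the lineage-negative medians lay between 9881 and 10337. Barcodes under 1000 UMIs made up 39.0% of the Marfan lineage-positive library. Between 9 and 60 cell barcodes were shared by pairs of libraries. Klf4, the floxed gene, was at 23.7 CPM in SMC of the control, 40.8 of the Marfan and 110 CPM of the library labelled Klf4-floxed. A count near the 3' end need not fall in the deleted part, so it does not check the deletion, and that library is named by its label throughout. The reporter transcript was at 341, 417 and 227 CPM in SMC and at 4.72, 4.77 and 2.20 CPM in fibroblasts, in the order control, Marfan, labelled Klf4-floxed, which is kept below.

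Promoters of 4 members are printed: both ligands, and the receptors with the largest ratio between genotypes in any of the 5 classes compared, Ednrb and Npr3. Each is the 250 bases before the RefSeq transcription start (GRCm38.p6), 5′ to 3′ in the direction of transcription. The bases just after that start were found in an annotated transcript of the gene for Edn1, but not for Adm, Ednrb and Npr3. The Ednrb stretch lies inside the gene span given below, so it is not upstream of the annotated gene. Capitals mark CACCC or its reverse complement GGGTG, the core bound by Kruppel-like factors such as Klf4.
Edn1, chr13:42301226-42301475, plus strand: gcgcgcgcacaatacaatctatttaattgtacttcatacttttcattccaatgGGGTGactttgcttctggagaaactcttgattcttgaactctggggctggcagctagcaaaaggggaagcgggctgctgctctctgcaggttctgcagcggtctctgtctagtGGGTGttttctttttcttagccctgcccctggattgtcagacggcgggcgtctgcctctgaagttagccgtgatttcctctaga
Adm, chr7:110627407-110627656, plus strand: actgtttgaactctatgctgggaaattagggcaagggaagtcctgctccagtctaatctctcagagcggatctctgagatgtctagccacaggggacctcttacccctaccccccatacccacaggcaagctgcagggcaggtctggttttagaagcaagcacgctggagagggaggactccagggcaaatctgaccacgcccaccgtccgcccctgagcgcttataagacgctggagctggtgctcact
Ednrb, chr14:103843702-103843951, minus strand: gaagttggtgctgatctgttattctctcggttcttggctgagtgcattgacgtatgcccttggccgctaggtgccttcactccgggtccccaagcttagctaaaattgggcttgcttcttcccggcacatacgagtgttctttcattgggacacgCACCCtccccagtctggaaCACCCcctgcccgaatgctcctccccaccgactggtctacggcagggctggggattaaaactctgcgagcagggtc
Npr3, chr15:11907372-11907621, minus strand: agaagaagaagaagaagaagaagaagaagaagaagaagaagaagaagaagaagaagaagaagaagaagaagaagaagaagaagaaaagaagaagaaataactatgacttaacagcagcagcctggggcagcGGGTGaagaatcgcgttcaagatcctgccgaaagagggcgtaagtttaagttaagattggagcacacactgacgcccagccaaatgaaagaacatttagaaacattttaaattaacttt

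CACCC on either strand was found 2 times in Edn1, beginning at bases -197 and -84 from the start, 2 times in Ednrb at -95 and -76, 1 time in Npr3 at -119, and not in Adm. Of 32851 RefSeq mouse promoters of this length, 52.0% held it, so its presence is common. Neither TGANTCA, the AP-1 motif, nor AGATAA, bound by factors of the GATA family, was found in the promoter of any member on either strand, and they occurred in 6.75% and 9.99% of all promoters. ACGTG, the core of the hypoxia response element, was found in 16.6% of all promoters and, among members, at 1 of 4 starts of Ece1. These are matches of letters, not binding sites. Ramp2 had no entry.

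The cell classes split the genes into those highest in endothelium and those highest in muscle, mesothelium or cluster 15. The mean over libraries was highest in the endothelial class for 7 of the 10 genes: Edn1, Ednrb, Ece1, Adm, Calcrl, Ramp2 and Ramp3. For Adm, Ednrb and Ramp3 the range over libraries overlapped that of the next class or cluster, so their first place is not clear of the spread. Clusters had been formed without these 10 genes and without the pathway lists.

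Edn1 (chr13:42301476-42307990, plus strand), the endothelin-1 precursor, was at 64.7 [51.4, 80.4], 303 [283, 324] and 138 [124, 153] CPM in endothelial cells. Mesothelial cells, found in useful number in the Marfan library and the one labelled Klf4-floxed, followed at 50.7 and 41.7 CPM. Without the 5 richest cells these were 11.7 and 0 CPM, and 24 of the 25 UMIs of the second library lay in 1 cell. Fibroblasts stood at 6.96, 8.75 and 5.73 CPM and SMC at 4.60, 3.78 and 3.29 CPM. Endothelial cells supplied 23.1%, 58.9% and 46.4% of the Edn1 UMIs of the lineage-negative libraries, and the far more numerous fibroblasts 65.5%, 27.0% and 36.2%. Cell shares depend on dissociation and sorting, so these shares of UMIs describe the libraries, not the tissue.

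Ece1 (chr4:137862237-137965229, plus strand), the converting enzyme, was at 752, 676 and 733 CPM in endothelial cells. Next were fibroblasts at 90.1, 114 and 105 CPM. Of endothelial cells with an Edn1 UMI, 90.0%, 96.1% and 94.9% also had one of Ece1, against 84.4%, 88.7% and 92.4% of all endothelial cells. The first shares rest on 20, 102 and 78 cells, and depth was not matched.

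The 2 endothelin receptors were highest in different classes. Ednra (chr8:77663031-77724464, minus strand), the constrictor receptor, was highest in cluster 15, a group of 69, 116 and 88 lineage-positive cells led by Higd1b, Vtn and Rgs5, at 40.8 [26.1, 60.7], 67.8 [52.0, 86.9] and 84.6 [65.3, 108] CPM. Higd1b, Vtn and Rgs5 are known pericyte genes, but SMC markers were detected there too and the cluster was left unnamed. Fibroblasts followed, after the small cluster 17, at 23.2, 17.6 and 17.1 CPM and supplied most Ednra UMIs of each lineage-negative library. In cluster 15 of the library labelled Klf4-floxed 40 of 88 cells had an Ednra UMI, among them all 6 cells with an Ednrb UMI. In Marfan 36 of 116 had one, among them only 2 of the 6 cells with an Ednrb UMI. The control had no Ednrb UMI in that cluster. In the SMC class Ednra was only at 4.92, 3.87 and 3.57 CPM. Endothelial cells had 0, 0 and 1 UMI, and the count of 0 in 179 control cells allows a level of up to 2.39 CPM (3 counts).

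Ednrb (chr14:103814625-103844402, minus strand), the B receptor, was at 176, 98.6 and 134 CPM in endothelial cells. Macrophages, at 167, 51.9 and 48.6 CPM, and cluster 17, with Dct and Syt4 among its leading genes, at 52.9, 99.9 and 232 CPM, held the gene as well. Dct is a known gene of melanocytes, a lineage in which Ednrb has a known developmental role. SMC and fibroblasts were at 0.652 to 1.84 CPM in all libraries. In the control, 72.8% of lineage-negative Ednrb UMIs lay in macrophages and 21.6% in endothelial cells.

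Adm (chr7:110627661-110629820, plus strand), the adrenomedullin precursor, was at 35.1, 79.7 and 63.6 CPM in endothelial cells, at 57.1, 62.3 and 36.6 CPM in fibroblasts and at 30.5, 17.2 and 11.9 CPM in SMC. In cluster 17 it was at 15.9, 4.76 and 134 CPM, from 3, 1 and 66 UMIs. Cluster 16, led by Il11, Cxcl5 and Csf3 and with 248 Marfan cells, stood at 55.4 CPM and supplied 9.74% of the Adm UMIs of its lineage-negative library. Fibroblasts supplied 93.9%, 79.1% and 84.7%.

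Calcrl (chr2:84330626-84425411, minus strand), the shared receptor, was at 433, 398 and 473 CPM in endothelial cells, and at 17, 15.6 and 16.9 CPM in SMC. Ramp1 (chr1:91179822-91225196, plus strand) was at 583, 594 and 552 CPM in SMC, at 428, 436 and 329 CPM in cluster 15, at 75.9 to 122 CPM in cluster 12, at 37.9, 47.5 and 46.6 CPM in macrophages, and at 1 to 2 UMIs per library in endothelial cells. Ramp2 (chr11:101246028-101259546, plus strand) was at 1136, 1184 and 1317 CPM in endothelial cells, at 177, 277 and 362 CPM in the valve interstitial or chondrocyte class, at 227, 230 and 257 CPM in fibroblasts, and under 2 CPM in SMC. Ramp3 (chr11:6658521-6677475, plus strand) was at 105, 44.8 and 76.3 CPM in endothelial cells and at 66.1, 34.2 and 24.8 CPM in cluster 12, a myeloid group led by Arg1, Ccl17 and Ly6c2.

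Cells with a Calcrl UMI were compared with all cells of their class for the partner genes. Among SMC with Calcrl, 96.0%, 88.4% and 94.9% had Ramp1, against 94.1%, 73.1% and 92.6% of all SMC. Among endothelial cells with Calcrl, 90.6%, 94% and 98.4% had Ramp2, close to the 90.5%, 93.7% and 95.6% of all endothelial cells. Ramp3 was found in 33.9%, 20.4% and 27.6% of them, against 26.3%, 16.2% and 24.5% of all. Fibroblasts with Calcrl had Ramp2 in 79.1%, 76.7% and 74.9%, against 70.2%, 70.0% and 71.3% of all. Macrophages with Calcrl had Ramp1 in only 16.5%, 23.5% and 31.1%, against 23.0%, 30.1% and 28.3% of all, and Ramp2 in 5.88%, 6.72% and 7.56%. Cells with more UMIs show more genes of any kind, and the shares of all cells do not correct for this. Of the Marfan SMC, 5333 of 10631 lay in cluster 0, which had a median of 1355.5 UMIs. Depth was not matched, and its part in these gaps was not tested.

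Npr3 (chr15:11839896-11907287, minus strand), the clearance receptor, was highest in mesothelial cells, at 119 [99.7, 141] CPM in Marfan and 63.4 [44.9, 87.1] CPM in the library labelled Klf4-floxed, where 65 and 49 such cells were found. Without the 5 richest cells of each library they were 71.9 and 11.2 CPM. By the mean over libraries SMC followed, at 15.1, 19.2 and 23.6 CPM. Endothelial cells overlapped them, reaching 38.8 CPM in the Marfan library. The signalling receptor Npr1 was at 61.8, 50.1 and 49.1 CPM in SMC. Of the peptides themselves, Edn2, Nppa, Nppb, Adm2, Calca and Calcb were low in SMC, fibroblasts, endothelial cells, macrophages and valve interstitial or chondrocyte cells. Calca, the precursor of calcitonin gene-related peptide, reached 4.24 CPM at most, in valve interstitial or chondrocyte cells of the Marfan library, and Nppb 1.54 CPM.

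**Figure D1:**
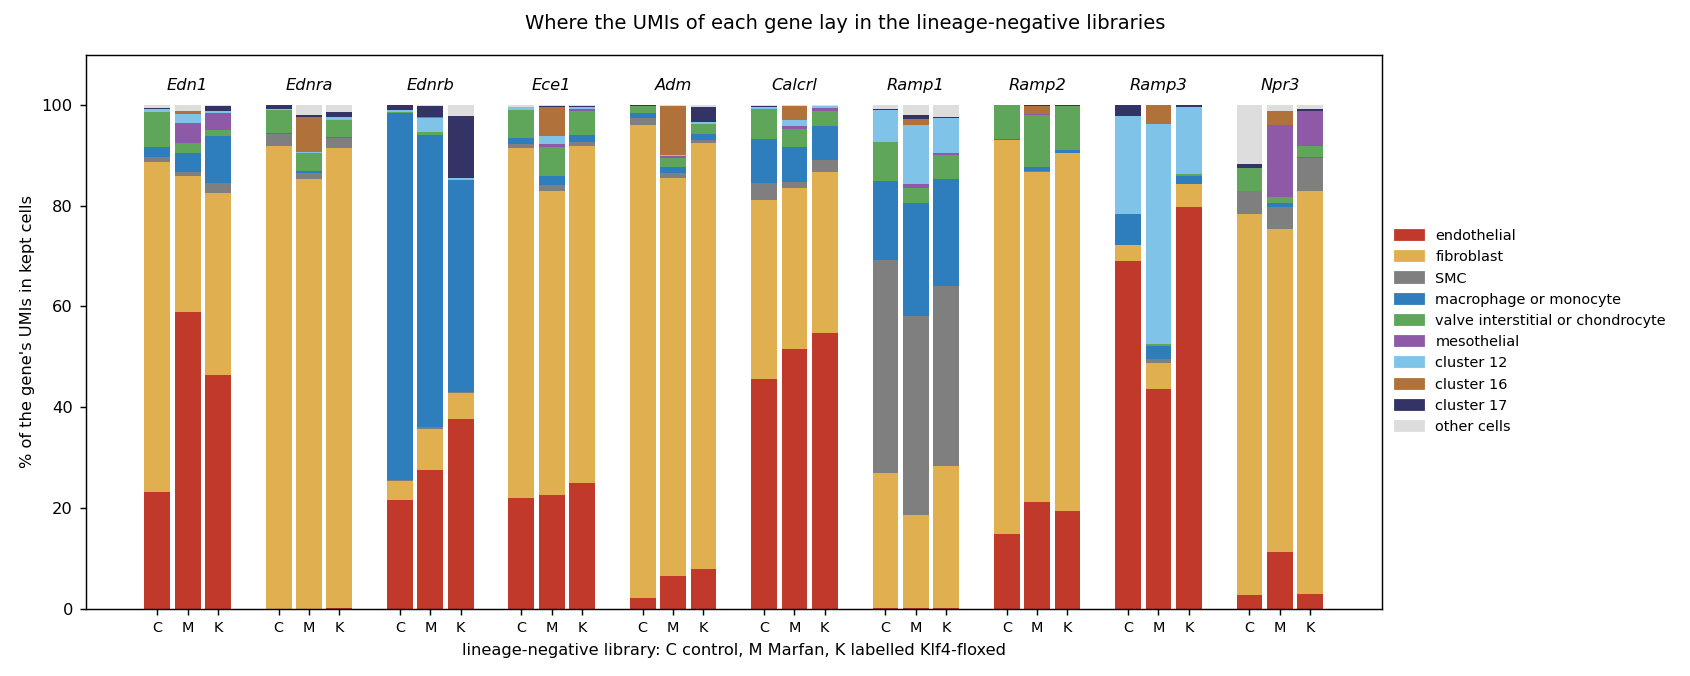
Share of each gene's UMIs by cell class in the 3 lineage-negative libraries (percent of UMIs in kept cells, stacked bars). The endothelial share of Edn1 is 23.1%, 58.9% and 46.4% from left to right, and macrophages hold 72.8% of Ednrb UMIs in control.

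Genes whose levels ran most like a member's were ranked by Pearson's r of log2(CPM + 1) over 55 units of cluster and library with at least 50 cells. Units of a library share its depth and its pooled animals, so r is a description. The first for Edn1 was Prkd2 (r = 0.826), for Ednra Ntrk2 (0.846), for Ednrb Smagp (0.878), for Ece1 Hspa12b (0.934), for Adm Akap12 (0.739), for Calcrl Thsd1 (0.861), for Ramp1 Mrvi1 (0.917), for Ramp2 Zfp521 (0.935), for Ramp3 Gimap1 (0.962) and for Npr3 Fmo2 (0.818). Adm had the lowest of these values.

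**Figure D2:**
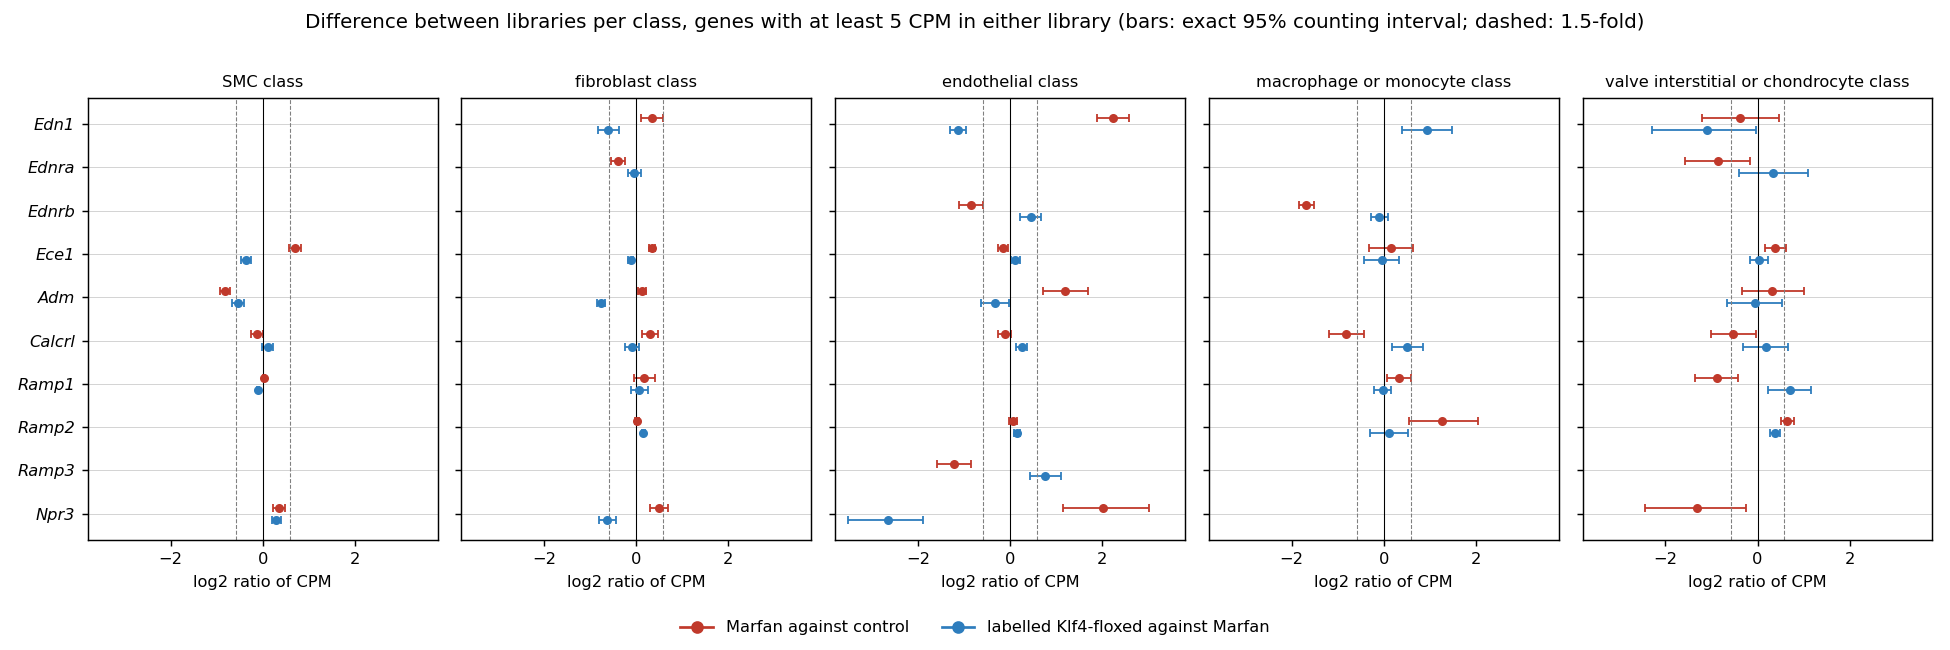
Log2 ratio of CPM in 5 cell classes, red for the Marfan library over control and blue for the library labelled Klf4-floxed over Marfan, with exact 95% counting intervals; dashed lines mark 1.5-fold, and genes under 5 CPM in both libraries are not drawn. Edn1 in endothelial cells lies at 2.23 and then -1.13, and Ednrb in macrophages at -1.68 and then -0.09.

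Among the 5 classes compared, endothelial cells carried the largest measured differences of both ligands. Edn1 was higher in the Marfan library than in control by 2.23 (log2 ratio, interval 1.90 to 2.57), Adm by 1.18 (0.71 to 1.68) and Npr3 by 2.02 (1.15 to 3.01). The B receptor Ednrb was lower, at -0.84 (-1.10 to -0.58), as was Ramp3, at -1.22 (-1.59 to -0.86). Ece1, Calcrl and Ramp2 differed by less than 1.5-fold, at -0.15, -0.12 and 0.06. So 5 of 8 measured members were past 1.5-fold, where 24.9% of all 10551 genes tested were. The members' median log2 ratio was -0.03, beside -0.13 for all genes. The ratio of Ednrb fell short of 1.5-fold, at -0.51, with cells thinned to 2000 UMIs and at -0.58 without the 5 richest cells. The libraries held only 179, 364 and 343 endothelial cells.

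In the library labelled Klf4-floxed, 3 of 8 measured members differed from Marfan by 1.5-fold, where 12.1% of all genes did. Edn1 was lower by a log2 ratio of -1.13 (-1.32 to -0.95) and Npr3 by -2.65 (-3.51 to -1.89), and Ramp3 was higher by 0.77 (0.44 to 1.10). Edn1 there lay between control and Marfan. The Ramp3 ratio was 0.50 with cells thinned to 2000 UMIs. Adm differed from Marfan by -0.33 (-0.63 to -0.03), and by -0.98 without the 5 richest cells, -0.69 with thinned cells and 0.34 with sub-clusters weighted alike. Both comparisons share the Marfan library, so they are not independent.

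How many endothelial cells held Edn1, and how much each held, both differed. A UMI was found in 20 of 179, 102 of 364 and 78 of 343 cells, or 11.2%, 28.0% and 22.7%. With every cell thinned to 2000 UMIs, the shares were 6.29%, 17.7% and 15.6%, after leaving out 20, 19 and 22 shallower cells. In macrophages, which were low in Edn1, the unthinned shares were 1.29%, 2.46% and 3.57%. The 5 cells richest in Edn1 held 58.0%, 26.2% and 29.3% of the endothelial UMIs, and without them the levels were 28.1, 230 and 99.9 CPM, with Marfan still the highest.

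Marker sums of other cell types also differed between the libraries. Of those given here, only the SMC sum ran in the order of Edn1, lowest in control and highest in Marfan. In the endothelial class the 9 SMC markers summed to 193, 510 and 244 CPM, the 9 valve interstitial or chondrocyte markers to 1089, 2165 and 2347 CPM and the 9 fibroblast markers to 2756, 1481 and 2639 CPM. Of the defining markers, Myocd was at 0 in the control and the library labelled Klf4-floxed, and Acan and Cnmd were at 0 in all 3. Hapln1 is on the lists of both valve interstitial and valve-type endothelial cells. Of 15 measured immediate early and heat shock genes, which respond to handling, 5 were higher in the Marfan library (Hspa1a by 1.60 and Hspa1b by 1.35 among them) and 3 lower (Egr1, Ier2 and Btg2), with a median of 0.11. Their part in the results was not tested.

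The endothelial class was split again, without the members, into 9 sub-clusters. Sub-clusters 0, 1 and 4 held 6, 4 and 6 of the 6 lymphatic markers, and 4 was also led by them (Ccl21a, Reln, Lyve1). Sub-cluster 3 was valve-type (Hapln1, Wnt9b, Dkk2), 6 capillary-like (Rgcc, Cd36, Car4) and 7 arterial-like (Sema3g, with Gja5 and Sox17 detected). The remaining sub-clusters are called by their leading genes: 2 by Sfrp1, Ecrg4 and Isl1, 5 by Pdgfra, Enpp2 and Postn, and 8 by Col15a1, Rasa4 and Ackr1. Their shares differed widely between libraries. Sub-cluster 2 made up 3.91%, 18.7% and 19.0% of endothelial cells and valve-type sub-cluster 3 made up 25.1%, 5.77% and 14.9%.

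**Figure D3:**
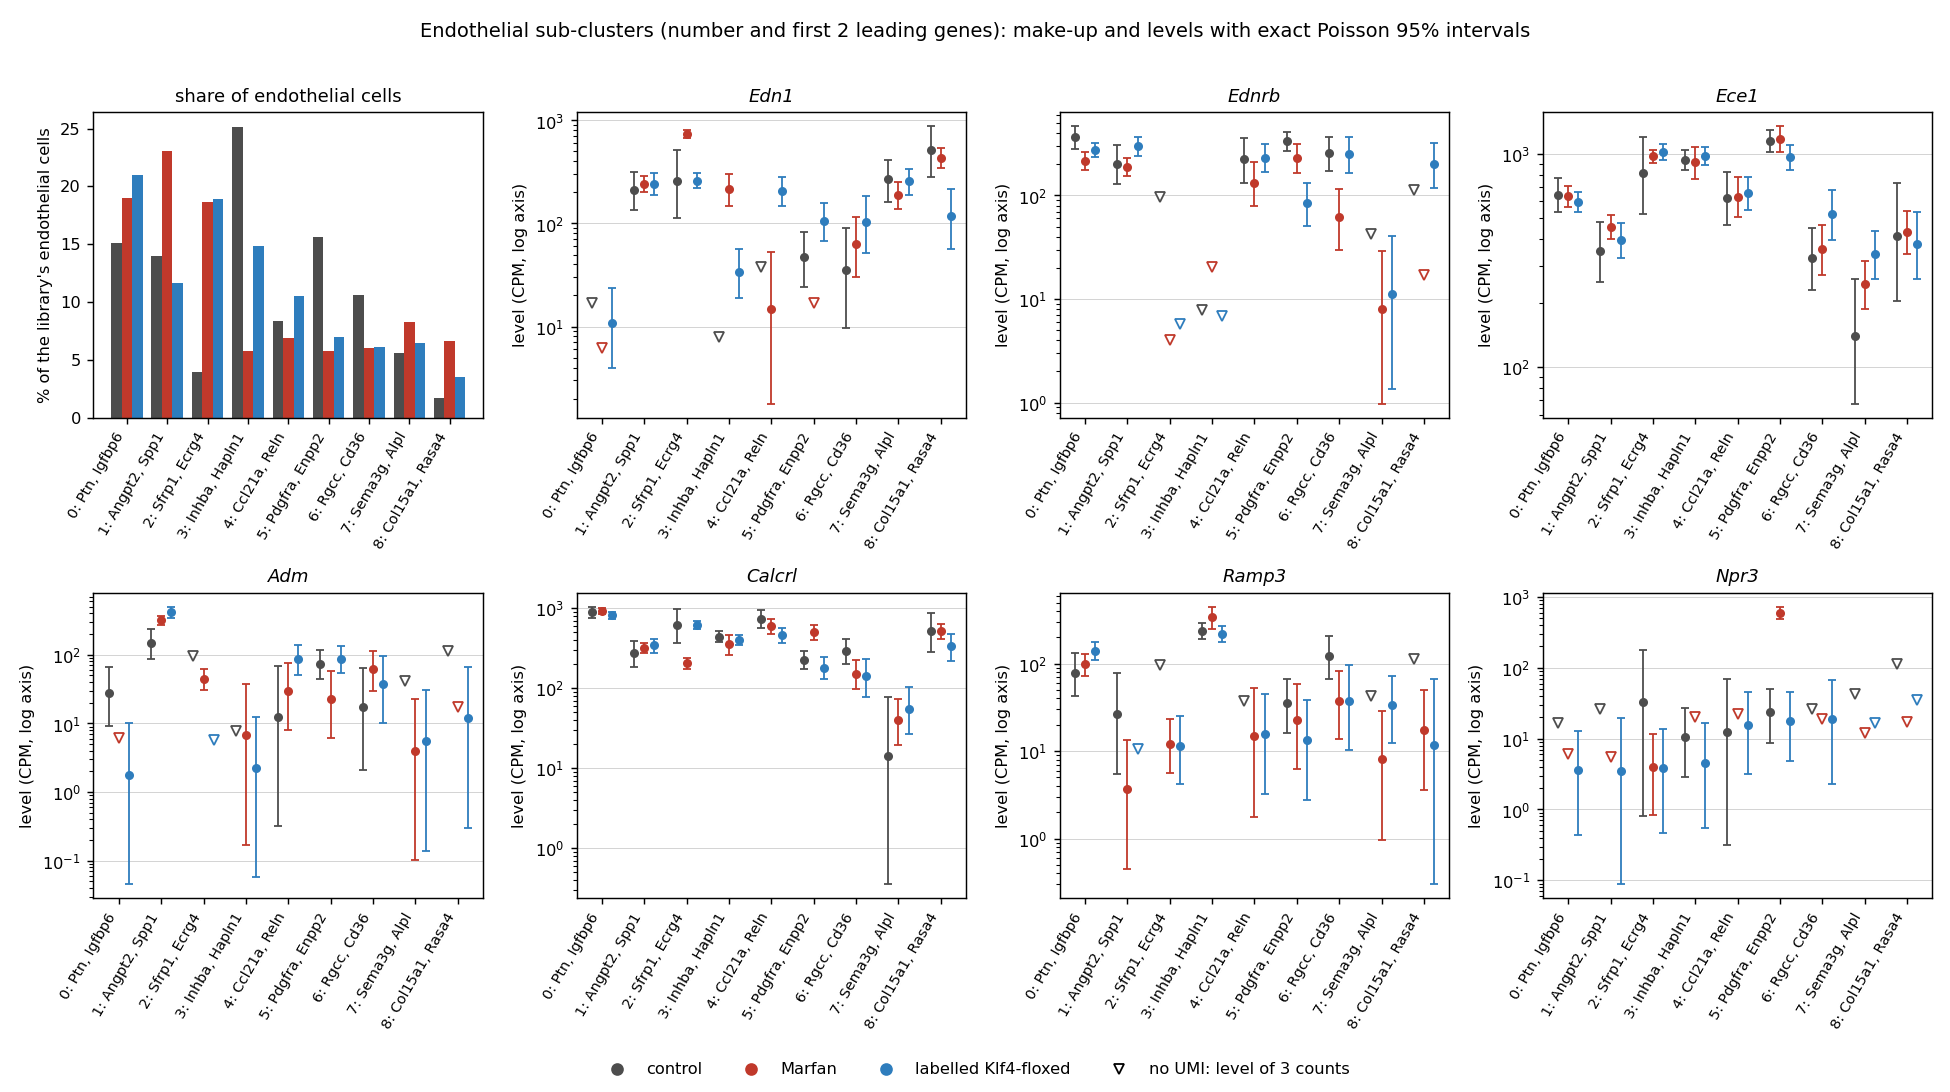
Endothelial sub-clusters: percent of each library's endothelial cells (bars from 0) and levels of 7 genes (CPM, log axis) with exact Poisson 95% intervals; open triangles mark no UMI, at the level of 3 counts. Edn1 in sub-cluster 2 is at 744 CPM in the Marfan library and at 260 and 261 CPM in the others, and Npr3 in sub-cluster 5 is at 600 CPM in Marfan.

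Edn1 of the Marfan library lay chiefly in sub-cluster 2, which gave 552 of its 850 endothelial Edn1 UMIs and stood at 260, 744 and 261 CPM from 7, 68 and 65 cells. Valve-type sub-cluster 3 also had its highest level in Marfan, at 0, 217 and 34.0 CPM, with its 32 Marfan UMIs all in 1 cell. Sub-cluster 5 was lowest in Marfan, with 12, 0 and 24 Edn1 UMIs in 28, 21 and 24 cells. Sub-cluster 1 was at 212, 244 and 244 CPM, arterial-like sub-cluster 7 at 268, 189 and 256 CPM, and sub-cluster 8 at 523, 437 and 119 CPM. Their control values rest on few cells: 24 UMIs in 4 of 25 cells of sub-cluster 1, 19 UMIs in 5 of 10 cells of sub-cluster 7 and 14 UMIs in 2 of 3 cells of sub-cluster 8. Without the 5 richest cells of each library sub-cluster 1 was at 0, 155 and 118 CPM. With the sub-clusters weighted alike in every library, an alternative added after the data were seen, the Marfan to control ratio was 0.85 in place of 2.23. The ratio of the library labelled Klf4-floxed to Marfan was then -0.63 in place of -1.13. The make-up of the class thus differed along with the level, and the control value in sub-cluster 2 rests on 8 UMIs.

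The other genes also had their own places within the endothelium. Adm was highest in sub-cluster 1, at 150, 318 and 418 CPM. Without the 5 richest cells of each library it was at 10.2, 189 and 109 CPM there, and 52 of the 120 UMIs of the library labelled Klf4-floxed lay in 1 cell. In the control, sub-cluster 5 held 19 Adm UMIs and sub-cluster 1 held 17. Ednrb was at 365, 215 and 275 CPM in sub-cluster 0, at 203, 188 and 300 CPM in sub-cluster 1, at 225, 132 and 233 CPM in lymphatic sub-cluster 4, at 336, 232 and 83.9 CPM in sub-cluster 5 and at 256, 62.6 and 253 CPM in capillary-like sub-cluster 6. It had no UMI in sub-clusters 2 and 3 of any library. Sub-cluster 2, with most of the Edn1 UMIs of the Marfan endothelium, was thus without detected B receptor. Ramp3 was highest in valve-type sub-cluster 3, at 238, 338 and 220 CPM. That sub-cluster was a smaller share of the Marfan endothelium. With sub-clusters weighted alike the Marfan to control ratio of Ramp3 was 0.23 in place of -1.22.

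Calcrl was at 887, 921 and 810 CPM in sub-cluster 0, and at 14.1, 40.2 and 55.7 CPM in arterial-like sub-cluster 7. Ece1 was at 646, 634 and 596 CPM in the first of these and at 141, 245 and 340 CPM in the second. Npr3 of the Marfan library came almost wholly from sub-cluster 5, with 106 of 109 UMIs and 600 CPM there, against 23.4 and 17.7 CPM in the other libraries. Of those 109 UMIs, 69.7% lay in 5 cells, and without the 5 richest cells of each library the levels were 3.37, 11.9 and 3.13 CPM.

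Of the pathway genes in the endothelium, Nppc, the C-type natriuretic peptide cleared by Npr3, was at 56.7, 4.98 and 23.9 CPM, a difference of -3.51 (-4.45 to -2.67) and then 2.26 (1.41 to 3.21). Pam, which finishes adrenomedullin by amidation, was higher in Marfan by 0.86 (0.68 to 1.04). The lists that follow are read against the 24.9% of all genes past 1.5-fold. In the nitric oxide and cyclic GMP list 1 of 11 measured genes was higher and 5 were lower in Marfan, with a median of -0.55, the lower including Pde1c and Nos2, each under 12 CPM. Among other vasoactive receptors 5 of 14 were higher and 2 lower. In the list for hypoxia, a known inducer of both ligands, 4 of 12 were higher and 2 lower. The flow list, with Klf2 and Klf4, had 1 of 7 higher, Cyp1b1, and none lower.

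In SMC both an enzyme and a ligand gene differed. In Marfan against control, Ece1 was higher by 0.70 (0.58 to 0.83), at 14.3 [13.4, 15.3] and 23.3 [22.1, 24.5] CPM. Adm was lower, with a ratio of -0.83 (-0.94 to -0.72), at 30.5 [29.1, 31.9] and 17.2 [16.2, 18.2] CPM. These were 2 of 5 measured members, where 6.37% of all 9406 genes tested were past 1.5-fold. The receptor genes differed less: Ramp1 by 0.03, Calcrl by -0.12 and Npr3 by 0.35 (0.23 to 0.48).

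None of the 5 measured members was 1.5-fold apart between the library labelled Klf4-floxed and Marfan, where 0.969% of genes were. No p-value exists for these counts, since each group is a single library. The nearest was Adm at -0.53 (-0.66 to -0.40), which left the levels at 30.5, 17.2 and 11.9 CPM. Ece1 was at -0.36 (-0.47 to -0.26) and Npr3 at 0.30 (0.19 to 0.40).

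The SMC class was made of different clusters in the 3 libraries, and this went with both differences. Cluster 3 (led by Kcnip4 and Tceal6) held 2729 of the 5007 control cells. Cluster 0, of shallow cells with a median of 1355.5 UMIs, held 5333 of the 10631 Marfan cells. Cluster 1 (P2rx1, Igfbp2) held 2338 of the 5736 cells of the library labelled Klf4-floxed. Without cluster 0 the ratios were 0.72 for Ece1 and -0.83 for Adm. With every cell thinned to 2000 UMIs they were 0.58, short of 1.5-fold, and -0.84. Tnnt2, a cardiomyocyte marker, led clusters 5 and 9, so values are also given by cluster number.

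Adm within clusters was at 37.3, 29.3 and 24.9 CPM in cluster 3, at 23.0, 17.7 and 11.8 CPM in cluster 1, and at 25.5, 16.4 and 16.4 CPM in cluster 9. In cluster 8, led by Timp4 and Esm1, it was at 3.45, 7.64 and 1.87 CPM. That cluster held 65 control, 1044 Marfan and 1102 cells of the library labelled Klf4-floxed. With clusters weighted alike in every library the Marfan to control ratio of Adm was -0.06. The weights were shares of the SMC pooled over libraries. Shallow cluster 0 entered that weighting with 63 control and 5333 Marfan cells, so its control level rests on few cells. Of the clusters given here, Adm was thus lower in Marfan than in control within clusters 3, 1 and 9, but not within cluster 8. The control level of cluster 8 rests on 65 cells. Adm levels of SMC clusters 0 and 5 are not given in the text, so these clusters do not stand for the whole class. Cluster 3, with the highest Adm of the clusters named here, held 2729 of 5007 control and 766 of 10631 Marfan cells. The part of class make-up in the Adm difference was not tested.

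Ece1 was higher in Marfan than in control within cluster 9, at 25.5, 43.0 and 33.9 CPM, and within cluster 8, at 13.8, 27.2 and 17.5 CPM. Ece1 levels of SMC clusters 0, 1, 3 and 5 are not given in the text. With clusters weighted alike the Marfan to control ratio of Ece1 was 0.44, short of 1.5-fold, in place of 0.70. Npr3 was highest in cluster 8, at 33.4, 40.3 and 57.7 CPM. Ramp1 was lower in cluster 8, at 351, 380 and 289 CPM, than in cluster 1, at 627, 731 and 697 CPM, in all 3 libraries. Calcrl stood at 38.0, 22.3 and 26.9 CPM in cluster 8.

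**Figure D4:**
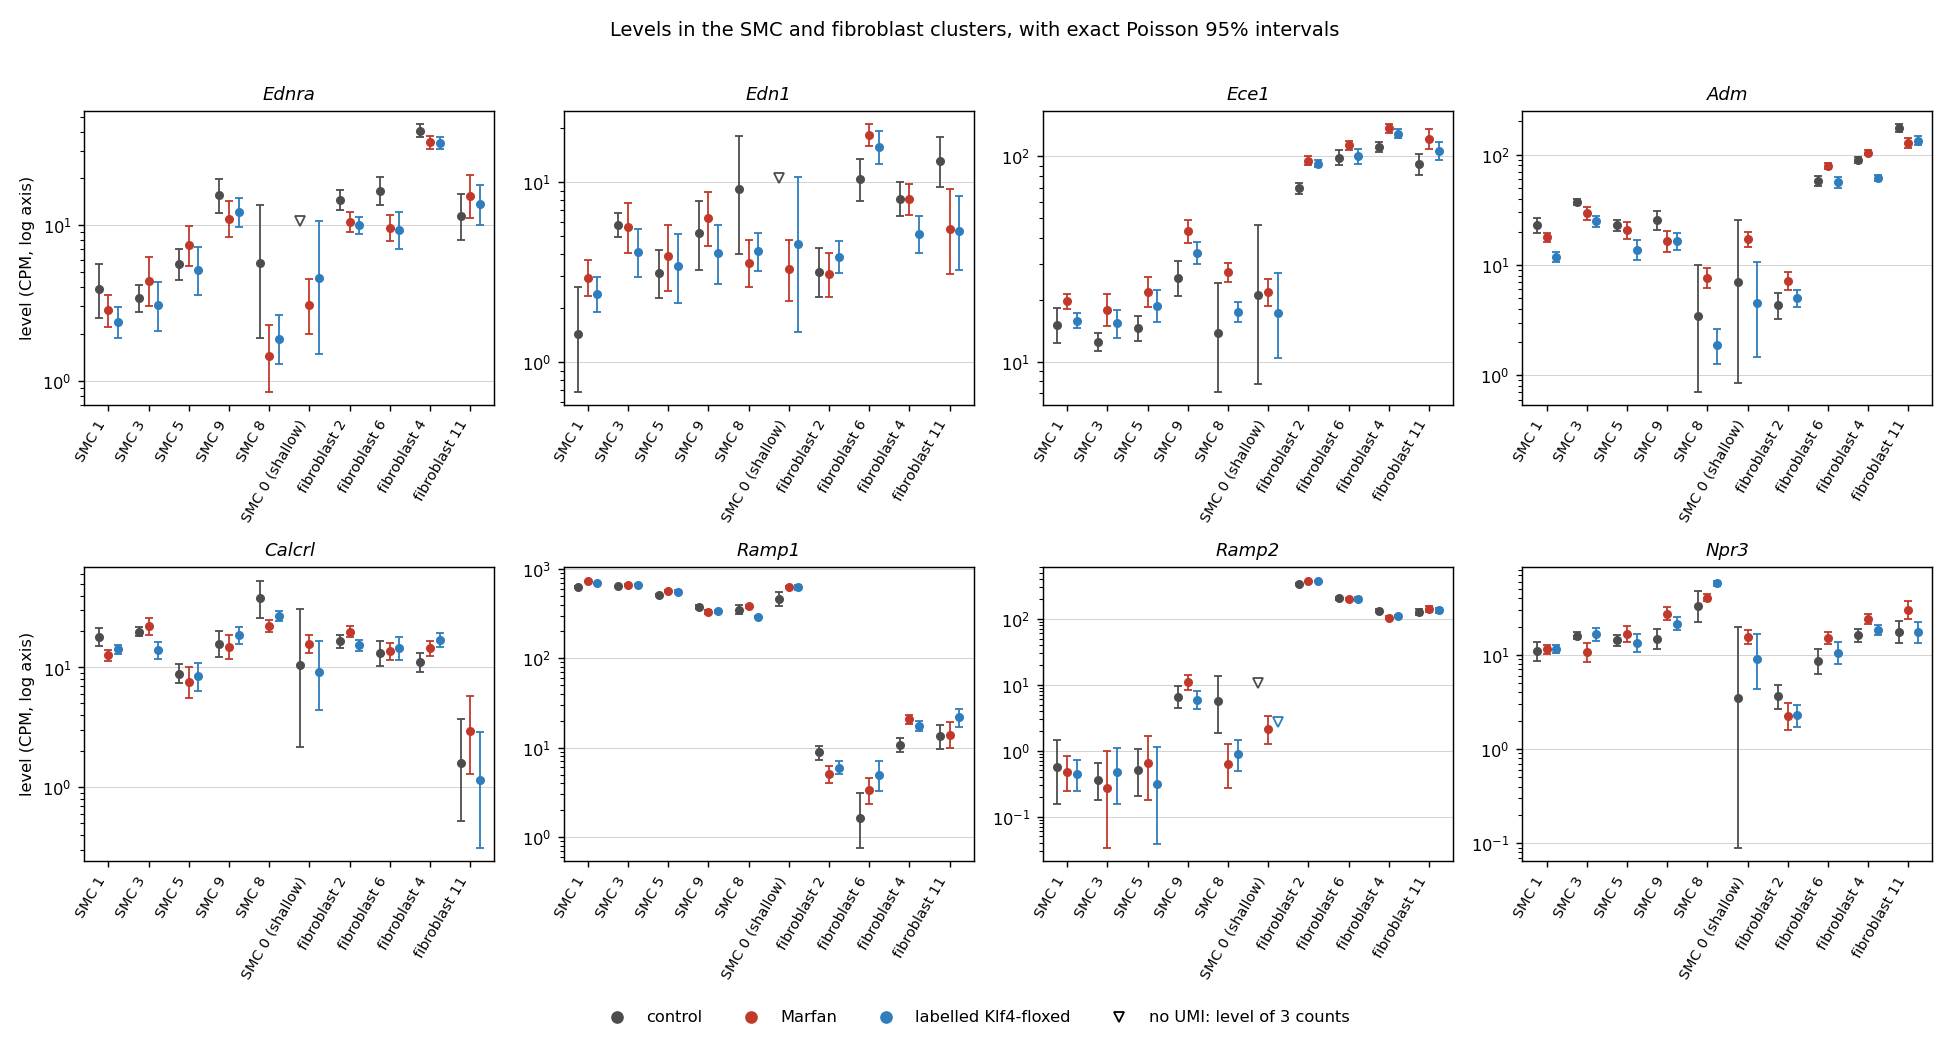
Levels of 8 genes (CPM, log axis) in the SMC and fibroblast clusters, with a point per library and exact Poisson 95% intervals; open triangles mark no UMI, at the level of 3 counts. Adm is low in SMC cluster 8, at 1.87 to 7.64 CPM, and in fibroblast cluster 2, and highest in fibroblast cluster 11, at 128 to 173 CPM.

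Among the pathway genes of SMC, Ackr3, a scavenger receptor for adrenomedullin, was lower in Marfan by a log2 ratio of -0.87 (-1.06 to -0.69), and Corin, the protease that activates atrial natriuretic peptide, by -0.87 (-1.03 to -0.71). Rgs2, which damps signalling of Gq-coupled receptors such as Ednra, was at 15.4 and 5.92 CPM, a ratio of -1.38 (-1.56 to -1.21). It was the only 1 of 17 measured genes of the Gq and G12 list past 1.5-fold. This count and the next are read against the 6.37% of all 9406 genes tested that were past 1.5-fold. In the cyclic AMP list, downstream of Calcrl, 2 of 15 were lower, the phosphodiesterases Pde4b and Pde4d, at -0.84 and -0.62. Ace, the angiotensin-converting enzyme, was higher by 1.77 (1.73 to 1.81).

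Fibroblasts had none of 8 measured members past 1.5-fold in Marfan against control, where 3.84% of genes were. The largest ratio was that of Npr3, 0.49 (0.29 to 0.69), and Ednra was at -0.40 (-0.54 to -0.25). In the library labelled Klf4-floxed 3 of 8 were lower than in Marfan, where 1.4% of genes were lower and 2.57% higher or lower. Adm was at -0.77 (-0.86 to -0.68), Npr3 at -0.63 (-0.81 to -0.45) and Edn1 at -0.61 (-0.84 to -0.39). With fibroblast clusters weighted alike none of the 3 reached 1.5-fold, and Adm was at -0.52. Edn1 stayed past 1.5-fold in only 5 of 15 alternatives and Npr3 in 11.

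For Adm, the fibroblast clusters differed far more from each other than the genotypes did. Adm was at 173, 128 and 133 CPM in cluster 11 (Lrat, Wnt6), at 88.7, 104 and 61.4 CPM in cluster 4 (Hsd11b1, Gdf10), and at 4.30, 7.15 and 4.99 CPM in cluster 2 (Prss35, Coch). Ednra was highest in cluster 4, at 40.6, 34.1 and 34.0 CPM. Ramp2 was highest in cluster 2, at 336, 369 and 368 CPM. Edn1 was highest in cluster 6 (Pi16, Clec3b) in both Marfan libraries, at 18.4 and 15.7 CPM. In the pathway lists Ackr3 was at 149, 96.1 and 77.1 CPM, and Mme, neprilysin, which degrades these peptides, at 38.5, 18.4 and 17.3 CPM, a ratio of -1.07 (-1.19 to -0.94) in Marfan against control.

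Macrophages had far less Ednrb in both Marfan libraries than in control. Levels were 167 [155, 179], 51.9 [47.8, 56.3] and 48.6 [43.9, 53.7] CPM, so control lay above the others with no overlap of intervals. The ratio of Marfan to control was -1.68 (-1.84 to -1.52). That of the library labelled Klf4-floxed to Marfan was -0.09 (-0.28 to 0.09). Of the 5 measured members 3 were past 1.5-fold in the first comparison, where 11% of genes were. Calcrl was lower at -0.81 (-1.19 to -0.44), with 23.3, 13.3 and 18.8 CPM, and Ramp2 was higher at 1.26 (0.56 to 2.05), with 4.26, 10.2 and 11.1 CPM. With doublets kept the ratio of Ramp2 was 0.49.

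In the second comparison 1 of 6 was past 1.5-fold, beside 5.8% of genes. It was Edn1, at 1.57, 4.63 and 8.85 CPM and a ratio of 0.94 (0.40 to 1.48). These Edn1 levels rest on 7, 52 and 71 UMIs.

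Ednrb UMIs were found in 119 of 387, 142 of 1055 and 106 of 841 macrophages (30.7%, 13.5% and 12.6%). Thinned to 2000 UMIs, the shares were 17.1%, 6.98% and 5.46%. SMC, which were low in the gene, had an unthinned share of 0.559% in the control. The median over all cells of the class was 11459 UMIs there, against 10538 in control macrophages. Macrophages with an Ednrb UMI were richer in Lyve1 and Mrc1, known genes of resident perivascular macrophages, and poorer in Ccr2, the receptor of recruited monocytes. Lyve1 was chosen after the values were seen, while Mrc1 and Ccr2 are listed markers.

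In cells with an Ednrb UMI Lyve1 was at 1691, 2019 and 1918 CPM, against 510, 195 and 293 CPM in those without. Mrc1 was at 2180, 2152 and 2235 CPM, against 927, 747 and 1063 CPM. Ccr2 was at 16.1, 9.88 and 12.5 CPM, against 58.7, 116 and 51.7 CPM. Cd209a, on the dendritic cell list, was also higher, at 49.8, 11.2 and 28.5 CPM against 1.98, 3.81 and 2.75 CPM. The direction for each of these 4 genes was the same in all 3 libraries.

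The share of macrophages with a Lyve1 UMI was 54.0%, 30.6% and 36.3%. Among these cells Ednrb was at 289 [267, 311], 176 [162, 191] and 133 [120, 147] CPM, so it was lower in both Marfan libraries within Lyve1-positive cells too. Among cells without a Lyve1 UMI it was at 33.3 [26.0, 42.0], 0.754 [0.277, 1.64] and 3.44 [2.04, 5.44] CPM. Like the class level, the share of Lyve1-positive cells was thus lower in both Marfan libraries than in control. So was Ednrb in cells with and in cells without a Lyve1 UMI. From Marfan to the library labelled Klf4-floxed the share was higher, while the class level was not. The 7 dendritic cell markers, all detected, summed to 233, 98.5 and 107 CPM in the class, and their part in the Ednrb difference was not tested.

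Valve interstitial or chondrocyte cells numbered 332, 487 and 363. In Marfan against control 4 of 8 measured members were past 1.5-fold, where 11.3% of genes were. Ramp2 was higher at 0.65 (0.52 to 0.78), with 177, 277 and 362 CPM. Ramp1 was lower at -0.88 (-1.36 to -0.41), Ednra at -0.86 (-1.57 to -0.15) and Npr3 at -1.32 (-2.45 to -0.24), each from 13 to 83 UMIs per library. With thinned cells Ednra was at 1.04, and with a mitochondrial limit of 5% Ramp1 was at 0.093 and Npr3 at -0.45. In the library labelled Klf4-floxed 2 of 7 differed from Marfan, where 6.15% of genes did: Ramp1 was higher at 0.70 (0.23 to 1.17) and Edn1 lower at -1.11 (-2.30 to -0.03). Ramp1 stayed past 1.5-fold in 8 of 14 alternatives and was at 0.077 with a mitochondrial limit of 5%.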

How the data were processed

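The deposited matrices hold raw counts of UMIs per gene and barcode, made by the authors with Cell Ranger 6.1.2 per the file headers, with mm10 as genome build per the submitters' processing notes. Annotation release and barcode calling were not given in the sources used here. Kept cells had 1000 or more UMIs, 500 or more genes and no more than 10% mitochondrial UMIs. Doublets were scored with Scrublet in scanpy 1.11.5 and removed; where its own threshold marked under 0.5%, the top 0.8% of scores per 1000 cells went. Cells were clustered by Leiden (resolution 1, 30 principal components, 2000 variable genes without the members and pathway lists) into 20 clusters, of which 4 stayed unnamed. Classes were named from listed markers. SMC came from the lineage-positive libraries and other classes from the lineage-negative ones.

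Counts were summed per library and class (scipy 1.17.1). The ratio and interval code was tested on simulated data. Replicate numbers follow accession order and pair nothing. Members and lists were chosen with earlier results of these data known. All 10 members are named, and of each list up to 3 genes with the largest and 3 with the smallest ratio past 1.5-fold. Alternatives varied cell filters, doublets, scaling, depth, clustering, the CPM minimum and the fold; class make-up, shallow cells and the 5 richest cells were added after the data were seen.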

Additional observations from a re-analysis of the deposited data

Results flagged for a closer look

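Several genes differed in opposite directions in different cell classes under the same comparison. These are differences between single libraries, and the difference between classes was not tested. In Marfan against control, Adm had a log2 ratio of -0.83 in SMC and 1.18 in endothelial cells. Npr3 was at 2.02 in endothelial cells and -1.32 in the valve interstitial or chondrocyte class. In the library labelled Klf4-floxed against Marfan, Edn1 was at 0.94 in macrophages, but at -0.61 in fibroblasts, -1.13 in endothelial cells and -1.11 in the valve interstitial or chondrocyte class. The fibroblast value of Edn1 stayed past 1.5-fold in 5 of 15 alternatives.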

How the results depend on the processing

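Of 23 member ratios past 1.5-fold, 10 stayed past it in the same direction under every alternative that recomputed the ratio, and 4 changed sign. This count leaves out the alternatives of the CPM minimum and the fold, and it does not apply the 5 CPM minimum. Edn1 in macrophages (labelled Klf4-floxed against Marfan) is among the 10, though its call was lost under some settings given below. Ramp3 in endothelial cells was at 0.23 (Marfan against control) and -0.16 (labelled Klf4-floxed against Marfan) with sub-clusters weighted alike. In the valve interstitial or chondrocyte class, Marfan against control, Ednra was at 1.04 with cells thinned to 2000 UMIs and Ramp1 at 0.093 with a mitochondrial limit of 5%. The cause was not tested.
Counts of members past 1.5-fold moved as follows. In SMC, Marfan against control, the 2 became 1 with thinned cells, 0 with clusters weighted alike, 4 with no CPM minimum and 0 at 2-fold. In the second comparison, labelled Klf4-floxed against Marfan, the 0 became 1 with a mitochondrial limit of 5%, with sort fractions clustered apart, and with clusters weighted alike. In fibroblasts the 0 of the first comparison became 1 with thinned cells and 2 with no minimum, and the 3 of the second became 1 at Leiden resolution 2, with each cell counted alike, with thinned cells and with a minimum of 20 CPM, and 0 with clusters weighted alike and at 2-fold. In endothelial cells the 5 of the first moved by less than 1.5 times, and the 3 of the second became 5 with no minimum. In macrophages the 3 of the first became 5 with thinned cells and 7 with no minimum; the 1 of the second became 2 with doublets kept, at Leiden resolution 0.5 and with no minimum, 3 with thinned cells, and 0 without the 5 richest cells, with a minimum of 20 CPM and at 2-fold. In the valve class the 4 became 2 with a mitochondrial limit of 5% and with a minimum of 20 CPM, and 1 at 2-fold; the 2 became 1 with a minimum of 4000 UMIs, a mitochondrial limit of 20%, doublets kept, members among the variable genes, sort fractions clustered apart, without the 5 richest cells, with a minimum of 20 CPM and at 2-fold.
Median-of-ratios scaling moved the median of all genes in endothelial cells from -0.13 to 0.01 in Marfan against control. No paired analysis was possible because each group has 1 library and the replicate numbers follow accession order only.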
